A study of Homo sapiens with 18 samples.

Results

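The 10 genes described here carry cytokine signals from the cell surface to the nucleus and switch those signals off. They are the kinases JAK1 and JAK2, the transcription factors STAT3 and STAT5A, the feedback inhibitors SOCS1, SOCS3 and CISH, and the serine/threonine kinases PIM1, PIM2 and PIM3. They were chosen by symbol with earlier results of these data known, as were the gene lists used below. All 10 were present among the 23686 gene symbols of the series. RNA was measured by bulk sequencing in 18 libraries from OCI-Ly1 and TMD8, human cell lines derived from diffuse large B-cell lymphoma, with 3 libraries in each of 6 groups. The cells of each line had received 0.01% DMSO as vehicle or JIB-04 at 150 nM or 500 nM. JIB-04 is a compound which blocks histone demethylases of the Jumonji family. The medium was IMDM for OCI-Ly1 but RPMI 1640 for TMD8, and line and medium therefore cannot be told apart. The labels call the replicates technical and give no treatment time, so the p-values below measure only the spread between libraries of a group, which may be technical.

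Cytokine receptors have no kinase activity of their own. Receptor-bound JAK kinases phosphorylate the receptor and the STAT proteins, and STAT dimers then bind DNA and start transcription. SOCS1, SOCS3 and CISH are among the genes so induced, and their proteins block the receptor or the kinase. The PIM kinases are also STAT target genes. Their proteins are active as soon as they are made, so that their activity depends on the amount of protein rather than on a switch by phosphorylation. In diffuse large B-cell lymphoma, STAT3 activity driven by autocrine IL-6 and IL-10 is known mainly from the activated B-cell type, to which TMD8 is usually assigned, and OCI-Ly1 is usually assigned to the germinal centre type.

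The OCI-Ly1 libraries held 17579732 to 32651115 estimated counts, and those of TMD8 held 9550092 to 20509500. All 8 B-cell markers examined, such as CD79A, reached a mean of 1 TPM (transcripts per 1000000) in every group. The summed TPM of 8 markers of the activated type, such as IRF4, was 722 to 894 in TMD8 and 137 to 145 in OCI-Ly1 with DMSO. FOXP1 and IL16 of this list were higher in OCI-Ly1, at means of 38.3 and 17.3 TPM against 30.7 and 9.57 TPM in TMD8. At 500 nM the sum of the 8 markers was 408 to 473 in TMD8 and 232 to 242 in OCI-Ly1. The sum of 7 germinal centre markers with DMSO was 203 to 214 in OCI-Ly1 and 46.7 to 55.9 in TMD8, but LMO2 and SERPINA9 of this list were higher in TMD8. Of 5 T-cell markers measured, CD3D and CD3G were present in OCI-Ly1 at 11.7 and 14.8 TPM with DMSO and at 4.95 and 7.41 TPM at 500 nM, while CD3E stayed under 0.5 TPM. Summed monocyte markers stayed at or below 1.53 TPM and summed fibroblast markers at or below 2.98 TPM in every library. The sum of 5 epithelial markers was higher, at 14.4 to 19.9 TPM over all libraries. With DMSO, KRT8 had a mean of 7.99 TPM in OCI-Ly1 and CDH1 a mean of 9.52 TPM in TMD8. One small RNA gene, MIR3687, held 16.1 to 17.3% of all TPM in TMD8 with DMSO and 19.1 to 24.3% at 500 nM. In OCI-Ly1 the gene with the most TPM was RPPH1, at 6.88 to 7.63% with DMSO and 9.70 to 10.6% at 500 nM. In bulk RNA, fewer cells of a type and less RNA per cell cannot be told apart. The part of these markers, of MIR3687 and of RPPH1 in the results below was not tested, beyond the alternative scalings given.

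With vehicle alone, all 10 genes had lower normalised read counts in OCI-Ly1 than in TMD8 (edgeR quasi-likelihood test, adjusted p under 0.05), in a comparison where 76.7% of all 16604 genes tested were called, 37.8% higher and 39% lower. No gene's DMSO libraries overlapped between the lines, as for 76.4% of all genes. Normalised read counts are given as counts per 1000000 (CPM) after TMM scaling of all 18 libraries. STAT3 had 41.5, 41.4 and 38.7 CPM in the OCI-Ly1 libraries and 963, 881 and 900.3 CPM in those of TMD8, a difference of -4.50 ± 0.0657 (SE; adjusted p = 2.29e-28) on the log2 scale, or 22.6-fold. SOCS3 had 0 counts in the 3 DMSO libraries of OCI-Ly1 and 215, 258 and 256 CPM in TMD8. The TMD8 mean was thus at least 1439-fold higher when OCI-Ly1 is set to a floor of 3 counts per library. CISH was likewise at 0 counts in OCI-Ly1 and at 3.09, 4.33 and 2.94 CPM in TMD8, with a mean at least 20.4-fold higher. STAT5A had 0.0383, 0 and 0.271 CPM in OCI-Ly1, which is 0 to 7.28 estimated counts, against 5.23, 5.61 and 5.08 CPM in TMD8. STAT3, SOCS3, CISH and STAT5A were the most unequal of the 10 between the lines.

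The kinases and SOCS1 differed less between the lines. The log2 difference, OCI-Ly1 minus TMD8, was -2.28 ± 0.0732 (SE; adjusted p = 6.93e-21) for JAK2, and -2.28 ± 0.0541 (SE; adjusted p = 7.71e-24) for PIM2. It was -1.62 ± 0.122 (SE; adjusted p = 1.69e-12) for SOCS1, -1.19 ± 0.0689 (SE; adjusted p = 5.37e-15) for JAK1 and -1.14 ± 0.0492 (SE; adjusted p = 6.25e-18) for PIM1. PIM3 was the least unequal, at -0.68 ± 0.0714 (SE; adjusted p = 1.62e-09). The size of these differences depended on scaling, and the median of all genes moved from -0.025 in this fit to 0.71 on log2(TPM + 1). On that scale PIM3 was higher in OCI-Ly1 by 0.27 (limma, adjusted p = 0.00231) and JAK1, at -0.21, was no longer called (limma, adjusted p = 0.0717). With each library centred on its median, both were lower in OCI-Ly1 again, at -0.49 for PIM3 and -0.97 for JAK1.

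Between genes, levels can be compared only per length, in TPM, and the deposited TPM tables of the lines are separate. In TMD8 with DMSO, PIM2 (134 ± 10.6 TPM, SD, n = 3) and STAT3 (126 ± 15.9) led, and their libraries overlapped. PIM1 (62.5 ± 2.58) and SOCS3 (61.9 ± 1.98) followed and also overlapped. Below them came JAK1 (39.6 ± 7.78), PIM3 (19.0 ± 0.758), and then SOCS1 (15.6 ± 0.830) and JAK2 (13.5 ± 2.19), whose libraries overlapped. CISH (1.149 ± 0.246) and STAT5A (0.845 ± 0.0772) were lowest. In OCI-Ly1 the order was PIM1 (55.5 ± 1.09) and PIM2 (53.9 ± 1.68), which overlapped, then JAK1 (33.8 ± 1.62), PIM3 (23.2 ± 1.39), STAT3 (10.9 ± 0.167) and SOCS1 (9.83 ± 2.29), which overlapped, and JAK2 (5.41 ± 0.629). STAT5A (0.0344 ± 0.0489) was barely present, and SOCS3 and CISH were listed at 0. A PIM kinase headed both lists, and STAT3 shared the top in TMD8 but stood behind 4 of the genes in OCI-Ly1.

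**Figure D1:**
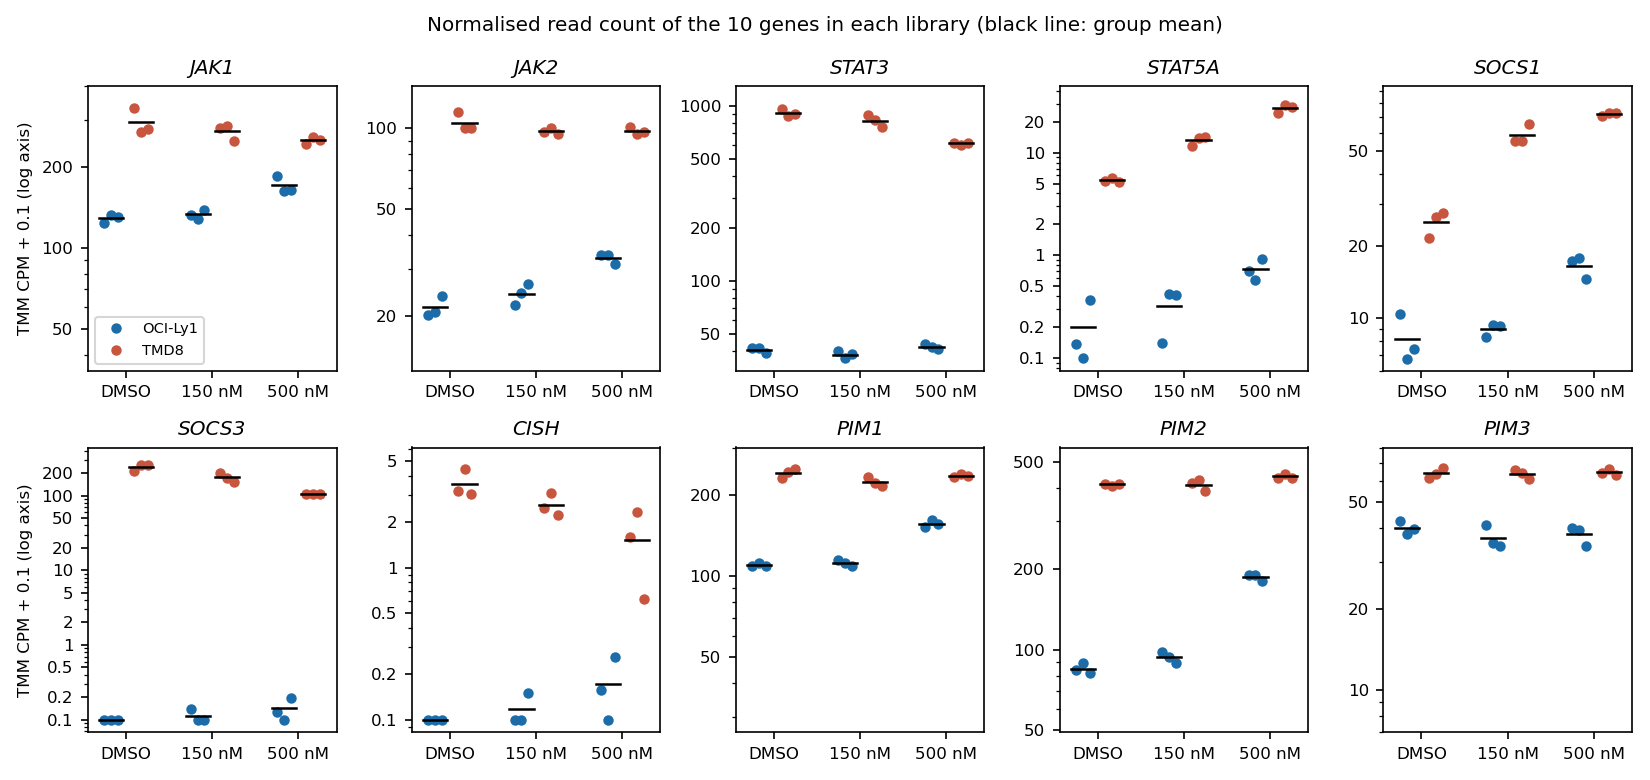
TMM-normalised counts per 1000000 of each gene in each library, plotted as CPM + 0.1 on a log axis, with DMSO, 150 nM and 500 nM on the x axis (colours: blue OCI-Ly1, red TMD8, black line the group mean). STAT3 and SOCS3 fall with dose in TMD8, SOCS1 and STAT5A rise in both lines at 500 nM, and PIM2 rises in OCI-Ly1 from a mean of 84.8 to 186 CPM.

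At 500 nM JIB-04, every called gene rose in OCI-Ly1, while in TMD8 some rose and others fell. In OCI-Ly1, 6 of the 8 genes that passed the low-count filter rose and 0 fell against DMSO, where 53.6% of all genes tested were called and 27.7% were called higher. The 6 were JAK1, JAK2, STAT5A, SOCS1, PIM1 and PIM2, and their libraries did not overlap with those of DMSO, as for 60.7% of all genes. The count of 0 genes lower was the same at an unadjusted p under 0.05, with DESeq2 and with limma on TPM. In TMD8, 3 of 10 rose and 4 fell at 500 nM, where 60.7% of all genes were called, 29.9% higher and 30.7% lower. STAT5A, SOCS1 and PIM2 were higher, and JAK1, STAT3, SOCS3 and CISH were lower. Again the libraries of the 7 called genes did not overlap with those of DMSO, as for 65.6% of all genes. All 10 were called on log2(TPM + 1) in TMD8, with 2 higher and 8 lower. On that scale 8758 of all 14433 genes tested were called there, 1407 higher and 7351 lower. The median log2 fold change at 500 nM was 0.56 over the 8 genes in OCI-Ly1 and -0.034 over the 10 in TMD8, beside -0.0033 and 0.041 over all genes tested.

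At 150 nM none of the genes was called in OCI-Ly1 and 4 were in TMD8. In OCI-Ly1, 0 of 8 genes were called with edgeR at 150 nM, and 0 with DESeq2 or limma on the 3 TPM scales, where 0.889% of all genes were called and 0.748% were higher. PIM2 alone had an unadjusted p under 0.05 there. In TMD8, 4 of 10 were called at 150 nM against a background of 44.2% (19.2% higher, 25% lower), with STAT5A and SOCS1 higher and STAT3 and SOCS3 lower. The groups did not overlap for 3 of the 4, all but STAT3, as for 51.1% of all genes. Between the doses, 500 nM against 150 nM, 6 of 8 rose in OCI-Ly1, where 46.2% of all genes were called, 25.1% higher and 21.1% lower. In TMD8, 3 rose and 2 fell between the doses, where 28.7% were called, 13.7% higher and 15% lower, and 44.9% did not overlap. The change against DMSO itself differed between the lines for 1 of 10 genes at 150 nM (background 23.3%, with 8.33% lower in OCI-Ly1) and for 7 of 10 at 500 nM (background 46.4%, with 28.2% higher in OCI-Ly1). The count at 150 nM was 3 with DESeq2 and 6 on log2(TPM + 1). Of all genes tested, 3873 of 14556 were called with DESeq2 and 4001 of 16114 on that TPM scale. One of the 7 at 500 nM is CISH, for which no difference is given because it was at 0 in OCI-Ly1 with DMSO.

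The share of higher calls depended on the scaling. Of all genes called at 500 nM in OCI-Ly1, 51.6% were higher. Scaling by library size alone made this 64.0%, log2(TPM + 1) made it 72.2%, and the centred TPM scale 37.2%. In TMD8 the corresponding shares were 49.3%, 59.4%, 16.1% and 45.4%. The median of all genes in TMD8 at 500 nM was 0.041 here and -0.28 on log2(TPM + 1), so a gene that kept pace with the median falls on that scale. At 150 nM in TMD8 the shares higher were 43.5%, 60.5%, 18.4% and 38.8%.

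**Figure D2:**
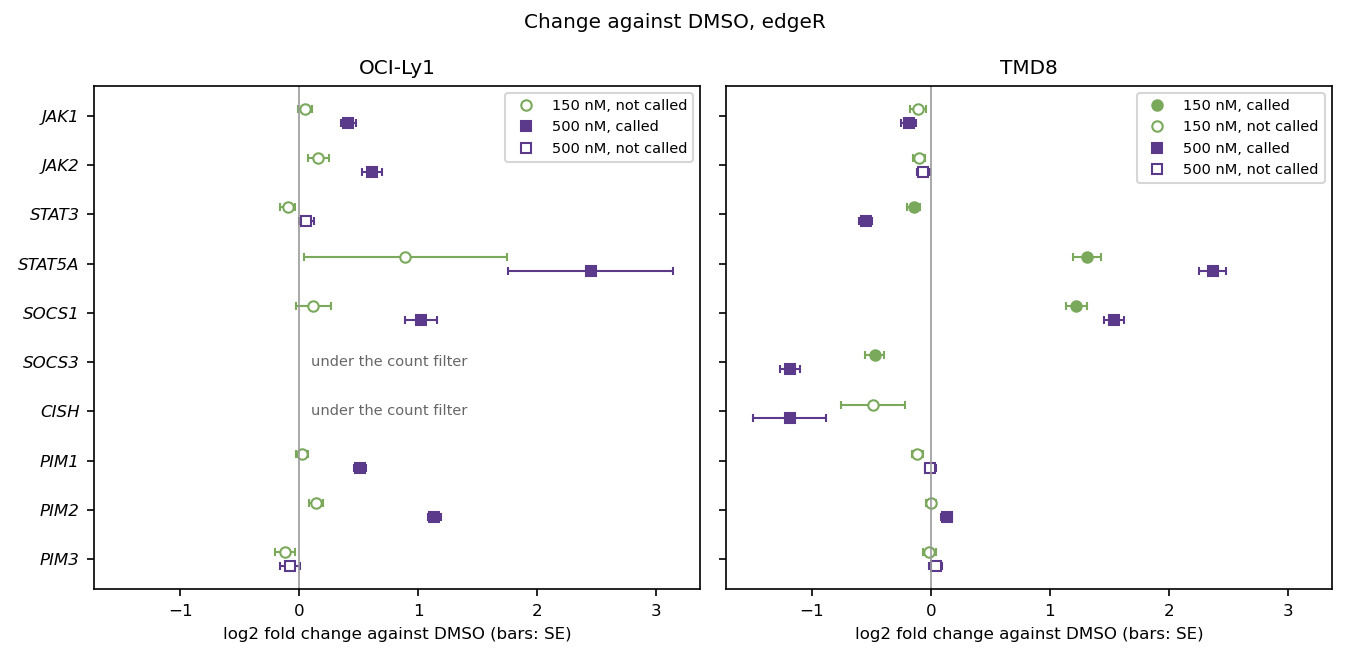
Log2 fold change against DMSO (x axis) with its standard error for each gene (y axis) at 150 nM (green circles) and 500 nM (purple squares) in OCI-Ly1 (left) and TMD8 (right); filled symbols have an adjusted p under 0.05 in edgeR. In OCI-Ly1 all called values lie to the right of 0, and in TMD8 STAT5A and SOCS1 lie to the right while SOCS3, CISH and STAT3 lie to the left.

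JAK1 and JAK2, the kinases that sit on most class I and class II cytokine receptors, both rose in OCI-Ly1 at 500 nM. In OCI-Ly1 JAK1 had 124, 132 and 130.2 CPM with DMSO, 132, 128 and 139 CPM at 150 nM and 185, 162 and 165 CPM at 500 nM. The 3 libraries at 500 nM were above all the others, and those at 150 nM overlapped with DMSO. JAK1 rose by 0.41 ± 0.0595 (SE; adjusted p = 1.54e-05) on the log2 scale at 500 nM. JAK2 in OCI-Ly1 had 20.1, 20.7 and 23.7 CPM with DMSO, 21.8, 24.2 and 26.3 CPM at 150 nM and 33.7, 33.6 and 31.1 CPM at 500 nM. Its rise at 500 nM was 0.61 ± 0.0857 (SE; adjusted p = 1.15e-05), with no overlap of the groups.

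In TMD8 JAK1 had 331, 269 and 278 CPM with DMSO, 279, 284 and 251 CPM at 150 nM and 244, 258 and 251 CPM at 500 nM. The first DMSO library stood above the other 8. JAK1 was lower at 500 nM, at -0.19 ± 0.0647 (SE; adjusted p = 0.0185) on the log2 scale. This call was lost without the first DMSO library, at -0.10 (edgeR, adjusted p = 0.092), without the first 500 nM library, at -0.17 (edgeR, adjusted p = 0.0759), and with library size alone, at -0.092 (edgeR, adjusted p = 0.161), whereas log2(TPM + 1) gave -0.54. JAK2 in TMD8 had 115, 99.9 and 100.02 CPM with DMSO, 97.2, 100.4 and 95.2 CPM at 150 nM and 101, 95.5 and 97.0 CPM at 500 nM, and its groups overlapped. At 500 nM JAK2 differed from DMSO by -0.064 with a 95% interval of -0.17 to 0.041, and it was called lower only on the uncentred TPM scales, at -0.41 on log2(TPM + 1). The change at 500 nM was higher in OCI-Ly1 than in TMD8 by 0.63 ± 0.0964 (SE; adjusted p = 6.94e-06) for JAK1. For JAK2 it was higher by 0.70 ± 0.1003 (SE; adjusted p = 2.63e-06).

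STAT3, the transcription factor that IL-6 and IL-10 receptors activate through these kinases, fell with dose in TMD8. Its normalised count there was 963, 881 and 900.3 CPM with DMSO, 886, 833 and 761 CPM at 150 nM and 617, 601 and 619.7 CPM at 500 nM. All 3 libraries at 500 nM were below the other 6, and the first 150 nM library lay within the DMSO range. STAT3 was 1.46-fold lower at 500 nM, -0.54 ± 0.0546 (SE; adjusted p = 1.16e-07) on the log2 scale, and log2(TPM + 1) gave -0.91. From 150 to 500 nM it fell by 0.40 ± 0.0547 (SE; adjusted p = 3.71e-05). The value at 150 nM, -0.14 ± 0.0542 (SE; adjusted p = 0.0399), was past the threshold in the fit used here but not in 10 of 15 alternatives. Without the third 150 nM library it was -0.065 (edgeR, adjusted p = 0.356). The call was also lost without the first or the third DMSO library or the second 150 nM library, at -0.11, -0.15 and -0.15.

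In OCI-Ly1 STAT3 had 41.5, 41.4 and 38.7 CPM with DMSO, 39.7, 36.0 and 38.1 CPM at 150 nM and 43.4, 42.1 and 40.8 CPM at 500 nM. The DMSO and 500 nM libraries overlapped. The difference at 500 nM was 0.060 with a 95% interval of -0.066 to 0.18, so that a fall as large as in TMD8 lies outside it. On log2(TPM + 1) it was 0.18 and called higher (limma, adjusted p = 0.0149), and on the centred scale it was -0.023 and not called. The change at 500 nM was higher in OCI-Ly1 than in TMD8 by 0.64 ± 0.0836 (SE; adjusted p = 8.2e-07). STAT3 was still 613 CPM in TMD8 at 500 nM, against 42.1 CPM in OCI-Ly1.

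STAT5A, one of 2 closely related STAT5 proteins that act below IL-2 and related cytokines, rose in both lines at 500 nM from low levels. In TMD8 it had 5.23, 5.61 and 5.08 CPM with DMSO, 11.4, 13.6 and 14.2 CPM at 150 nM and 24.3, 29.0 and 27.4 CPM at 500 nM. The 3 groups did not overlap at any step. The rise was 1.31 ± 0.118 (SE; adjusted p = 1.64e-07) at 150 nM and 2.37 ± 0.111 (SE; adjusted p = 7.96e-12) at 500 nM, or 5.16-fold, and from 150 to 500 nM it was 1.05 ± 0.0983 (SE; adjusted p = 7.44e-07). On log2(TPM + 1), which compresses changes of low genes, the values were 0.64 at 150 nM and 1.24 at 500 nM, both called.

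In OCI-Ly1 STAT5A was barely detected, with 0.0383, 0 and 0.271 CPM with DMSO, 0.0391, 0.317 and 0.308 CPM at 150 nM and 0.601, 0.483 and 0.824 CPM at 500 nM. The libraries at 500 nM held 12.8 to 26 estimated counts, and those with DMSO 0 to 7.28. The fitted rise at 500 nM was 2.45 ± 0.692 (SE; adjusted p = 0.00641), and it was 4.55 without the third DMSO library. The rise from 150 to 500 nM, 1.55 ± 0.614 (SE; adjusted p = 0.0463), was lost in DESeq2 and without any 1 of the 6 libraries compared, where it ran from 1.01 to 1.97. The change at 500 nM did not pass the test for a difference between lines, at 0.087 with a 95% interval of -0.67 to 0.85. STAT5A and STAT5B are near-identical neighbours, and reads that both could give were divided by estimation, so the STAT5A values, above all the lowest, are uncertain.

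Within each TMD8 library, STAT5A grew relative to STAT5B, the more abundant of the pair. The TPM ratio of STAT5A to STAT5B in TMD8 was 0.0972, 0.118 and 0.107 with DMSO, 0.221, 0.266 and 0.290 after 150 nM, and after 500 nM it was 0.520, 0.648 and 0.585. In OCI-Ly1 it stayed at or below 0.0169 in every library. The ratio of STAT3 to STAT5B in TMD8 was 15.9 ± 0.493 (SD, n = 3) with DMSO, 14.1 ± 0.682 at 150 nM and 11.5 ± 0.101 at 500 nM. The same ratio in OCI-Ly1 was 0.910 ± 0.0406, 0.832 ± 0.0452 and 0.707 ± 0.0161. STAT5B itself rose in OCI-Ly1 at 500 nM, by 0.42 ± 0.0691 (SE; adjusted p = 5.69e-05). STAT3 RNA was thus many times STAT5B RNA in TMD8 at every dose and below it in OCI-Ly1.

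The feedback inhibitors split by gene. SOCS3, which binds the gp130 receptor chain and JAK proteins, had 215, 258 and 256 CPM in TMD8 with DMSO, 202, 174 and 151 CPM at 150 nM and 105, 105 and 105 CPM at 500 nM. The 3 groups did not overlap and stepped down with dose. SOCS3 fell by 0.47 ± 0.0821 (SE; adjusted p = 0.000154) at 150 nM, and at 500 nM it fell by 1.18 ± 0.0857 (SE; adjusted p = 1.98e-09), which is 2.27-fold. From 150 to 500 nM it fell by 0.71 ± 0.0866 (SE; adjusted p = 1.3e-05). In OCI-Ly1 it had 0 counts in all 3 DMSO libraries and at most 3 counts in any treated library, so it was not detectable above the floor in that line at any dose, where 3 counts correspond to 0.169 CPM or less. At 500 nM the TMD8 mean of SOCS3 remained at least 941-fold higher than OCI-Ly1 set to that floor.

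CISH, an inhibitor that STAT5 typically induces, was low in TMD8, at 3.09, 4.33 and 2.94 CPM with DMSO, 2.36, 2.98 and 2.10 CPM at 150 nM and 1.49, 2.23 and 0.521 CPM at 500 nM. These are 46 to 74 estimated counts with DMSO and 5 to 29 at 500 nM. The third library at 500 nM was the lowest, and no 500 nM library reached the DMSO range. CISH fell by 1.18 ± 0.306 (SE; adjusted p = 0.00276) at 500 nM, and at 150 nM the value of -0.49 was not called (edgeR, adjusted p = 0.158). On centred log2(TPM + 1) the change at 500 nM was -0.38 and missed the threshold (limma, adjusted p = 0.0567). In OCI-Ly1 CISH had 0 counts with DMSO, at most 1 at 150 nM and at most 5 at 500 nM, and no fold is given. STAT5A and CISH therefore moved in opposite directions in TMD8.

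SOCS1, which inhibits the JAK kinase domain directly, rose in both lines. In TMD8 it had 21.6, 26.4 and 27.4 CPM with DMSO, 55.3, 55.4 and 65.1 CPM at 150 nM and 70.6, 72.5 and 72.1 CPM at 500 nM. No groups overlapped. SOCS1 rose by 1.22 ± 0.0855 (SE; adjusted p = 1.06e-08) at 150 nM and by 1.54 ± 0.0857 (SE; adjusted p = 7.15e-11) at 500 nM, or 2.90-fold. Most of the rise was present at 150 nM: the step from 150 to 500 nM was 0.31 ± 0.0797 (SE; adjusted p = 0.0063), and on log2(TPM + 1) it was 0.10 and not called (limma, adjusted p = 0.469).

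In OCI-Ly1 SOCS1 had 10.3, 6.65 and 7.28 CPM with DMSO, 8.18, 9.24 and 9.18 CPM at 150 nM and 17.3, 17.8 and 14.5 CPM at 500 nM. The first DMSO library was the highest of its group and lay above the 150 nM libraries, and all 500 nM libraries were higher still. The change was 0.12 at 150 nM, with a 95% interval of -0.16 to 0.40, and 1.02 ± 0.136 (SE; adjusted p = 6.29e-06) at 500 nM. SOCS1 was the 1 gene whose change at 150 nM differed between the lines, by -1.11 ± 0.170 (SE; adjusted p = 4.07e-05) for OCI-Ly1 minus TMD8. At 500 nM the difference was -0.50 ± 0.162 (SE; adjusted p = 0.0139). Without the first DMSO library of OCI-Ly1 it was -0.27 (edgeR, adjusted p = 0.158), and on log2(TPM + 1) it was -0.020 (limma, adjusted p = 0.938).

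The balance between SOCS3 and SOCS1 RNA in TMD8 turned over. The TPM ratio of SOCS3 to SOCS1 was 4.09, 3.99 and 3.83 with DMSO, 1.499, 1.28 and 0.948 after 150 nM, and after 500 nM it was 0.607, 0.591 and 0.596. SOCS3 was the more abundant transcript in every DMSO library, in 2 of 3 libraries at 150 nM and in 0 of 3 at 500 nM. The ratio is taken within a library and does not depend on scaling between libraries. In OCI-Ly1 it was at most 0.0027 in any library.

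**Figure D3:**
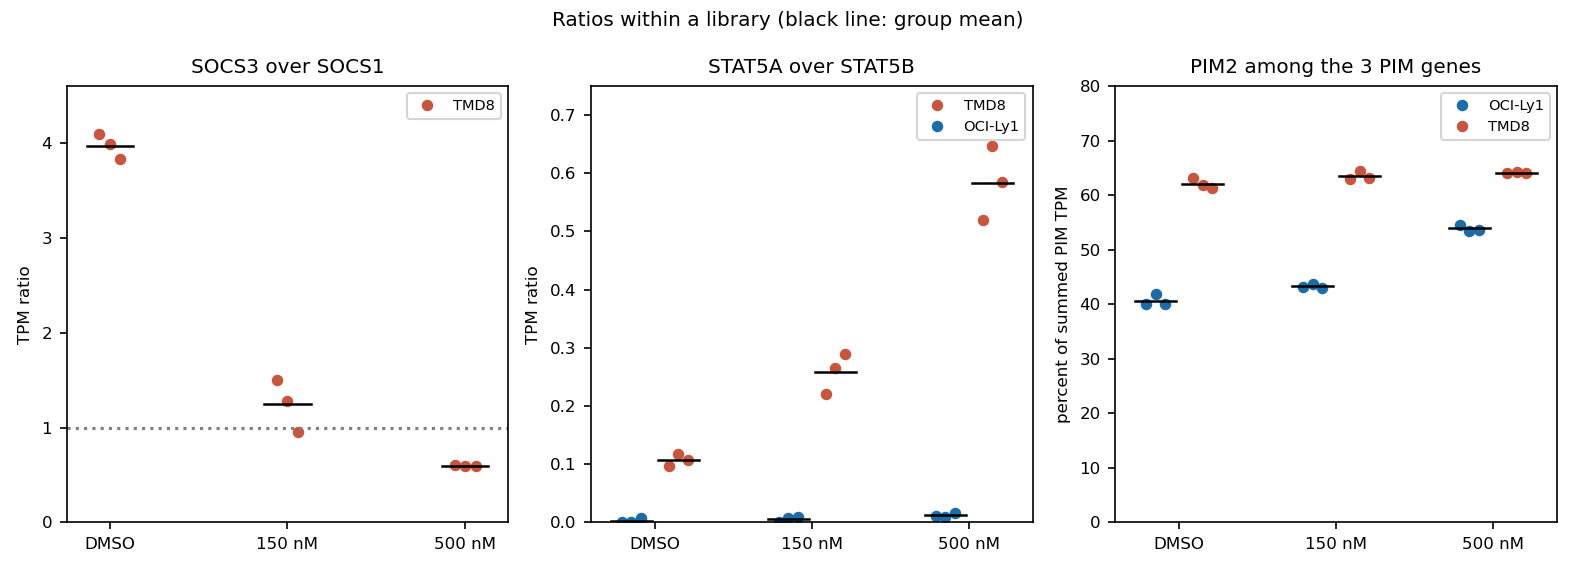
Ratios within each library (points, black line the group mean) by dose on the x axis: SOCS3 to SOCS1 in TMD8 (left, TPM ratio, dotted line at 1), STAT5A to STAT5B in both lines (middle, TPM ratio) and PIM2 as a percent of the summed TPM of the 3 PIM genes (right). The SOCS ratio falls from a mean of 3.97 to 0.598, and the PIM2 share rises in OCI-Ly1 from 40.6% to 53.9%.

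The 250 bases before the start of the feedback inhibitors are shown because SOCS3 and CISH fell while SOCS1 rose, and because the site that STAT dimers bind has a known form. That form, TTCNNNGAA on either strand, was searched in RefSeq windows of GRCh38.p14 that run from 250 bases before to 50 bases after each annotated start. The expression files carry symbols without coordinates. All 10 genes had at least 1 window, 18 in all, and 1 of the 18 held the motif, that of CISH. Among all 35116 windows, 7.66% held at least 1 match. The CISH window held 4 matches, beginning 241, 230, 129 and 112 bases before the start, and 7 of the 35116 windows (0.0199%) held 4 or more. The sequences run 5′ to 3′ on the gene's strand, with matches in capitals: CISH is on the minus strand at chr3:50611775-50612024, SOCS1 on the minus strand at chr16:11256205-11256454 and the more distal of 2 SOCS3 windows on the minus strand at chr17:78360926-78361175.
CISH: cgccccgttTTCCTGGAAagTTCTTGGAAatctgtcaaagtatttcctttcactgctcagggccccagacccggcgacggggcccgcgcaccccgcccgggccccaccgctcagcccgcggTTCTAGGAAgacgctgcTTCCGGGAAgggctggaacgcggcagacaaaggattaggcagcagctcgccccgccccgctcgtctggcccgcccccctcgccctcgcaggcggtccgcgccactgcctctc
SOCS1: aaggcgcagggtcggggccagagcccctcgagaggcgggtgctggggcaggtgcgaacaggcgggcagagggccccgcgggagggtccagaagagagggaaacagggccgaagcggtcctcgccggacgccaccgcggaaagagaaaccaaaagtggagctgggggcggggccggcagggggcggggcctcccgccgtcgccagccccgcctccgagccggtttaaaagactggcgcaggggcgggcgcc
SOCS3: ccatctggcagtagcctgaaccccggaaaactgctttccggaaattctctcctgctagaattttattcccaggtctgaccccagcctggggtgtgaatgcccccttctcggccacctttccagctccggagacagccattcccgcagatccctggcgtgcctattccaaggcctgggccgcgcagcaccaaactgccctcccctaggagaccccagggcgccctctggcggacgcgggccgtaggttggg
CISH, with the 4 matches, fell in TMD8 at 500 nM, as did SOCS3, whose 2 windows held none in these letters, and SOCS1, whose window held none, rose. A match is a run of letters and no evidence of binding in these cells.

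Of the PIM kinases, which phosphorylate regulators of translation, cell cycle and survival, PIM1 and PIM2 rose in OCI-Ly1 at 500 nM. In TMD8 PIM1 was not called at that dose, and the small rise of PIM2 there depended on scaling, as given below. PIM2 in OCI-Ly1 had 83.5, 89.4 and 81.6 CPM with DMSO, 98.0, 93.7 and 88.9 CPM at 150 nM and 189, 189 and 179.6 CPM at 500 nM. The 500 nM libraries stood well above the other 6. PIM2 rose by 1.14 ± 0.0568 (SE; adjusted p = 1.74e-11) at 500 nM, or 2.20-fold, and by 0.996 ± 0.0565 (SE; adjusted p = 1.55e-10) from 150 to 500 nM. At 150 nM the change was 0.14 with an unadjusted edgeR p of 0.0265 and an adjusted p of 0.405.

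PIM1 in OCI-Ly1 had 109, 112 and 109 CPM with DMSO, 115, 112 and 109 CPM at 150 nM and 152, 161 and 156 CPM at 500 nM. Its 500 nM libraries were above the other 6, with a rise of 0.51 ± 0.0510 (SE; adjusted p = 1.93e-07). PIM3 in that line had 42.4, 38.0 and 39.6 CPM with DMSO, 41.2, 35.2 and 34.2 CPM at 150 nM and 40.2, 39.3 and 34.3 CPM at 500 nM, and its groups overlapped. The PIM3 change at 500 nM was -0.077 with a 95% interval of -0.24 to 0.082, and its sign turned with scaling, to 0.058 on log2(TPM + 1). Of the 3 PIM genes, PIM2 thus rose most, PIM1 less, and PIM3 was not called.

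In TMD8 the largest difference of a PIM gene from DMSO at 500 nM was 0.13 on the log2 scale, that of PIM2. PIM2 had 413, 408 and 415 CPM with DMSO, 418, 426 and 389.9 CPM at 150 nM and 436, 451 and 437 CPM at 500 nM. The 500 nM libraries were just above the DMSO libraries, with a rise of 0.13 ± 0.0452 (SE; adjusted p = 0.0168). This direction depended on scaling: on log2(TPM + 1) PIM2 was lower, at -0.24 (limma, adjusted p = 0.0356), and on the centred scale it was 0.051 and not called. The call was also lost without the second DMSO library, at 0.13 (edgeR, adjusted p = 0.0555), and without the second 500 nM library, at 0.12 (edgeR, adjusted p = 0.0833).

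PIM1 in TMD8 had 233, 243 and 251 CPM with DMSO, 234, 222 and 216 CPM at 150 nM and 234, 239 and 236 CPM at 500 nM. Its change at 500 nM had a 95% interval of -0.10 to 0.089, and at 150 nM it was -0.11 (edgeR, adjusted p = 0.0594). The value at 150 nM was called without the first DMSO library, at -0.15, and without the first 150 nM library, at -0.14. On log2(TPM + 1), PIM1 was called lower at both doses, at -0.26 and -0.37. PIM3 in TMD8 had 61.4, 63.9 and 67.2 CPM with DMSO, 65.9, 64.2 and 61.0 CPM at 150 nM and 64.4, 66.3 and 63.1 CPM at 500 nM, with overlapping groups and a 95% interval at 500 nM of -0.065 to 0.15. On log2(TPM + 1) it too was called lower at 500 nM, at -0.31, and with library size alone it was called higher, at 0.13. The change at 500 nM was higher in OCI-Ly1 than in TMD8 by 1.03 ± 0.0732 (SE; adjusted p = 1.78e-11) for PIM2 and by 0.55 ± 0.0687 (SE; adjusted p = 4.27e-07) for PIM1. For PIM3 the difference was -0.090, with a 95% interval of -0.29 to 0.11.

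The make-up of PIM RNA shifted in OCI-Ly1. PIM2 made up 40.0, 41.9 and 40.0% of the summed PIM TPM with DMSO, 43.2, 43.6 and 43.0% after 150 nM, and after 500 nM 54.5, 53.5 and 53.6%, with no overlap between groups. PIM1 held 41.9 ± 0.424% (SD, n = 3) with DMSO and 36.1 ± 1.08% at 500 nM, and PIM3 17.5 ± 1.151% and 10.0 ± 0.628%. In TMD8 the PIM2 share was 62.1 ± 0.907%, 63.5 ± 0.842% and 64.1 ± 0.156% from DMSO to 500 nM. The summed TPM of the 3 genes in OCI-Ly1 was 133 ± 1.30 with DMSO and 242 ± 9.73 at 500 nM, and in TMD8 215 ± 13.9 and 176 ± 12.2. The lines' TPM tables are separate and the median of all genes moved on this scale as given above, so these sums describe each line and were not tested between them.

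The rest of the pathway was read from 6 lists, each given by its called genes at 500 nM against DMSO and its median beside that of all genes (-0.0033 in OCI-Ly1 and 0.041 in TMD8). Over all genes tested, the shares called higher and lower were 27.7% and 25.9% for OCI-Ly1 but 29.9% and 30.7% for TMD8. Of 13 cytokine ligands, 4 passed the low-count filter in OCI-Ly1, with 1 higher and 2 lower (median -0.20), and 7 in TMD8, with 3 higher and 2 lower (median 0.066). IL10, whose receptor signals through JAK1 and STAT3, fell in TMD8 from 47.6 ± 1.78 to 26.2 ± 2.35 CPM (SD, n = 3), a log2 change of -0.83 ± 0.0695 (SE; adjusted p = 1.14e-08). IL15 rose in TMD8 by 1.05 ± 0.133 (SE; adjusted p = 1.97e-06) and IL11, a gp130 cytokine, by 0.80 ± 0.171 (SE; adjusted p = 0.000546). The 2 ligands lower in OCI-Ly1 were IL10, at -1.01 ± 0.243 (SE; adjusted p = 0.00197), and IL11, at -0.64 ± 0.211 (SE; adjusted p = 0.0157). The 1 higher there was IL7, at 2.68 ± 0.533 (SE; adjusted p = 4e-04). They are given although each missed the level or count minimum for naming in that line. IL6 in TMD8 had a mean of 4.73 CPM with DMSO and 3.45 CPM at 500 nM and was not called, and in OCI-Ly1 it had at most 1 count in a library. IL6 was singled out after its values were seen.

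Of 20 receptor chains, 17 were tested in each line. In OCI-Ly1, 6 were higher and 2 lower (median 0.062), and in TMD8, 6 were higher and 3 lower (median 0.019), or 2 and 10 on log2(TPM + 1). Over all genes 53.6% were called in OCI-Ly1 and 60.7% in TMD8, beside 8 of 17 and 9 of 17 here. On log2(TPM + 1) in TMD8, 1407 of all 14433 genes tested were higher and 7351 lower. IL6ST, which encodes the gp130 chain shared by the IL-6 family, rose in both, by 1.04 ± 0.0997 (SE; adjusted p = 1.2e-07) in OCI-Ly1 and 1.06 ± 0.0959 (SE; adjusted p = 3.18e-08) in TMD8. IL2RA, the alpha chain of the IL-2 receptor, rose in OCI-Ly1 from 24.5 ± 1.66 to 50.9 ± 2.56 CPM, by 1.06 ± 0.0766 (SE; adjusted p = 3.01e-09), and IL2RG, the common gamma chain, by 0.49 ± 0.101 (SE; adjusted p = 0.000555). In TMD8 IL2RB fell from 158 ± 2.98 to 101 ± 1.30 CPM, a log2 change of -0.62 ± 0.0465 (SE; adjusted p = 3.01e-09). EPOR, the erythropoietin receptor, rose in TMD8 by 0.63 ± 0.162 (SE; adjusted p = 0.00247), but on log2(TPM + 1) the value was 0.14 and not called (limma, adjusted p = 0.265).

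**Figure D4:**
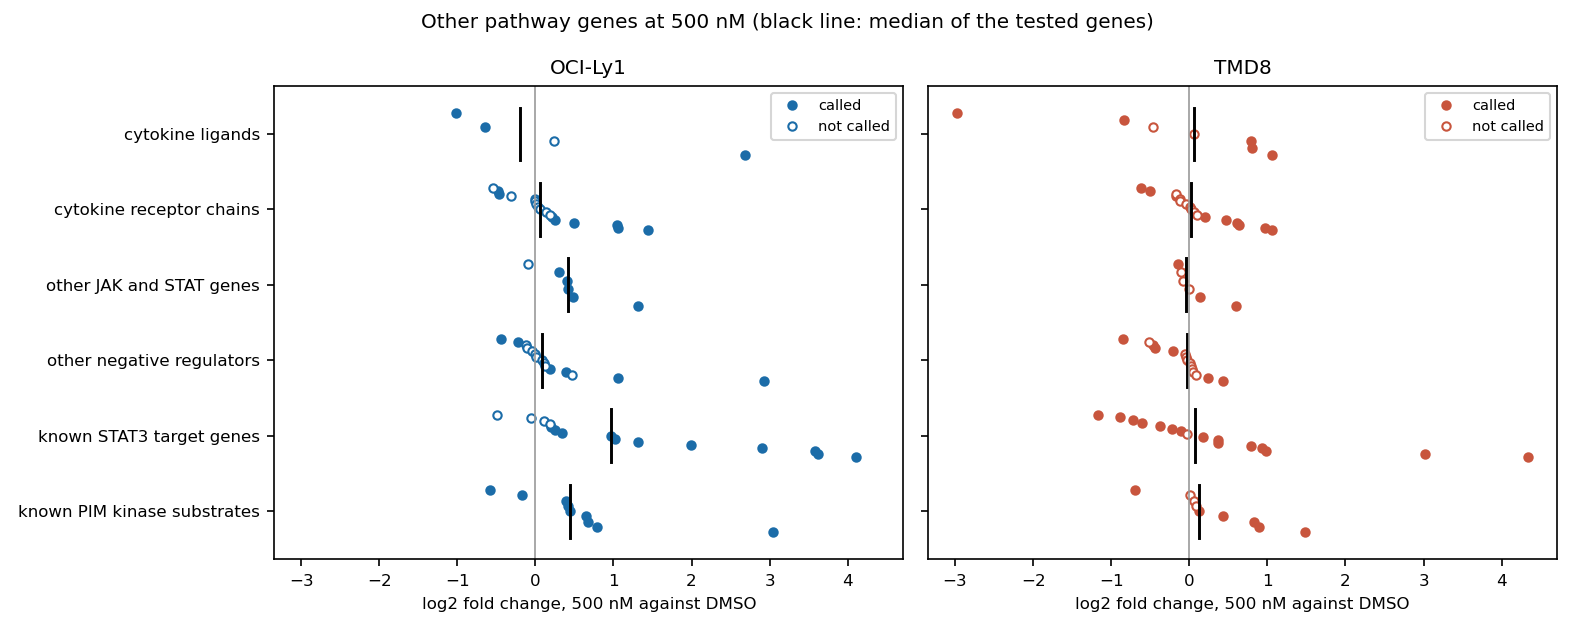
Log2 fold change at 500 nM against DMSO (x axis) of the tested genes in 6 lists of other pathway genes (y axis) in OCI-Ly1 (left) and TMD8 (right); filled points are called by edgeR and the black line is the median of the tested genes. The median of the known STAT3 target genes is 0.96 in OCI-Ly1 and 0.075 in TMD8.

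Of the other JAK and STAT genes, 5 of 6 tested rose and 0 fell in OCI-Ly1 (median 0.41), where 27.7% of all genes were called higher, with 0 lower also at an unadjusted p under 0.05 and with DESeq2. On the centred TPM scale 1 was lower. In TMD8, 2 rose and 1 fell (median -0.038), where 60.7% of all genes were called, but on log2(TPM + 1) 0 rose and 5 fell. On that scale 1407 of all 14433 genes tested rose and 7351 fell. JAK3, the kinase bound to the common gamma chain, rose in OCI-Ly1 from 6.79 ± 1.398 to 16.7 ± 0.938 CPM, by 1.31 ± 0.145 (SE; adjusted p = 7.02e-07), and was at 85.2 ± 1.35 and 83.0 ± 4.08 CPM in TMD8. TYK2 rose in OCI-Ly1 by 0.48 ± 0.0609 (SE; adjusted p = 3.57e-06). In TMD8 its rise of 0.14 ± 0.0451 (SE; adjusted p = 0.0129) turned to -0.23 on log2(TPM + 1) (limma, adjusted p = 0.0182). STAT2, which acts in interferon signalling, rose in TMD8 by 0.59 ± 0.0532 (SE; adjusted p = 2.78e-08), and on log2(TPM + 1) by 0.21 without passing the threshold (limma, adjusted p = 0.0566). It also rose in OCI-Ly1, by 0.40 ± 0.0575 (SE; adjusted p = 1.32e-05). STAT6 fell in TMD8 by 0.15 ± 0.0447 (SE; adjusted p = 0.00907), and with library size alone it was -0.053 and not called (edgeR, adjusted p = 0.264).

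Of the 15 other negative regulators, 4 rose and 2 fell in OCI-Ly1 (median 0.086), and 2 rose and 4 fell in TMD8 (median -0.034). The 6 of 15 called in each line stand beside 53.6% of all genes in OCI-Ly1 and 60.7% in TMD8. In TMD8, 0 rose and 11 fell on log2(TPM + 1), where 1407 of all 14433 genes tested rose and 7351 fell. Of the phosphatases that act on JAK or STAT proteins, PTPN6, PTPN1 and PTPN2 fell in TMD8. PTPN6, or SHP-1, went from 369.8 ± 15.9 to 201 ± 5.25 CPM, a log2 change of -0.84 ± 0.0499 (SE; adjusted p = 1.47e-10). PTPN1 fell by 0.47 ± 0.0501 (SE; adjusted p = 2.66e-07) and PTPN2 fell by 0.44 ± 0.0627 (SE; adjusted p = 8.94e-06). PTPN6 was nearly absent from OCI-Ly1, at 0.616 ± 0.115 CPM with DMSO. In OCI-Ly1, SH2B3, an adaptor that restrains JAK2, rose by 1.06 ± 0.104 (SE; adjusted p = 1.53e-07) and SOCS7 by 0.39 ± 0.0630 (SE; adjusted p = 5.71e-05), while the phosphatase PTPRC, or CD45, fell by 0.44 ± 0.0546 (SE; adjusted p = 2.78e-06).

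Of 18 known STAT3 target genes, 11 of 15 tested rose and 0 fell in OCI-Ly1 (median 0.96), where 27.7% of all genes were called higher and 25.9% lower, with 0 lower also at an unadjusted p under 0.05 and with DESeq2. On the centred TPM scale, and without the first DMSO library, 1 was lower. In TMD8, 8 of 16 rose and 7 fell (median 0.075; all genes 29.9% higher and 30.7% lower), or 4 and 8 on log2(TPM + 1). On that scale 1407 of all 14433 genes tested rose and 7351 fell. Among the genes that met the level and count minimums for naming, those with the largest changes in OCI-Ly1 were CEBPB, from 3.13 ± 0.222 to 53.5 ± 3.44 CPM, a rise of 4.10 ± 0.116 (SE; adjusted p = 8.9e-15), ICAM1, with 3.61 ± 0.139 (SE; adjusted p = 4.78e-13), and VEGFA, with 2.90 ± 0.139 (SE; adjusted p = 9.07e-12). In TMD8 FOS rose by 4.34 ± 0.215 (SE; adjusted p = 1.62e-11) and CEBPB by 3.02 ± 0.0986 (SE; adjusted p = 1.76e-13), while MYC fell from 364 ± 20.2 to 159 ± 3.87 CPM, a log2 change of -1.16 ± 0.0560 (SE; adjusted p = 1.13e-11). FOS, though under a minimum for naming in OCI-Ly1, rose there too, by 3.58 ± 0.474 (SE; adjusted p = 5.8e-06). MYC instead rose in OCI-Ly1, by 0.34 ± 0.0475 (SE; adjusted p = 1.14e-05). CEBPB and FOS encode transcription factors that many stress and growth signals induce, ICAM1 an adhesion molecule and VEGFA a growth factor that hypoxia also induces. BATF, PRDM1 and CCND2 of this list are also among the markers of the activated type given above.

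Of 9 known PIM kinase substrates, all tested, 7 rose and 2 fell in OCI-Ly1 (median 0.44), and 5 rose and 1 fell in TMD8 (median 0.13), or 3 and 5 on log2(TPM + 1). Over all genes 53.6% were called in OCI-Ly1 and 60.7% in TMD8. On log2(TPM + 1) in TMD8, 1407 of all 14433 genes tested rose and 7351 fell. CDKN1A, the cell-cycle inhibitor p21, rose by 3.05 ± 0.0672 (SE; adjusted p = 5.34e-16) in OCI-Ly1 and by 1.48 ± 0.0624 (SE; adjusted p = 2.4e-12) in TMD8. In OCI-Ly1 the chemokine receptor CXCR4 rose by 0.79 ± 0.0438 (SE; adjusted p = 6.95e-11) and BAD, a cell-death gene whose protein PIM kinases inactivate, by 0.67 ± 0.0821 (SE; adjusted p = 2.22e-06). In TMD8 the kinase gene MAP3K5 rose by 0.89 ± 0.0700 (SE; adjusted p = 5.23e-09) and the transcription factor gene FOXO3 by 0.83 ± 0.0868 (SE; adjusted p = 1.94e-07). MAP3K5 and FOXO3 rose in OCI-Ly1 as well, by 0.44 ± 0.0638 (SE; adjusted p = 1.51e-05) and 0.64 ± 0.0754 (SE; adjusted p = 1.45e-06). These are RNA values and do not report phosphorylation.

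For 7 of the genes tested in both lines, the most similar of 9934 genes was the one with the highest smaller Pearson correlation of log2 CPM over the 9 libraries of each line. The libraries share dose groups, so these values describe patterns and carry no test. STAT5A was most like WDFY1, with r of 0.97 in OCI-Ly1 and 0.98 in TMD8. SOCS1 was most like MFSD11 (0.96 and 0.98) and JAK1 most like NAA35 (0.98 and 0.95). STAT3 was most like RCC2 (0.92 and 0.93) and JAK2 most like STAMBP (0.94 in both). PIM1 had its closest match in THEM6 (0.89 and 0.88). PIM3 had the weakest closest match, TUT1 (0.78 and 0.73).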

How the data were processed

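RNA was extracted with RNeasy Plus Micro kits, depleted of ribosomal RNA and made into NEBNext Ultra II libraries that were sequenced as paired ends, per the labels' protocols. The submitters' processing notes name kallisto 0.46.0, R 4.3.1, DESeq2 1.40.2 and hg19, without saying which step used each. The authors deposited estimated counts and TPM values per gene symbol, in separate tables for each line. The estimated counts were rounded to whole numbers here.

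The 10 genes and all lists were chosen with earlier results of these data known. Each line's 9 libraries were fitted together with edgeR 4.0.16 (R 4.3.3; TMM scaling, low-count filter by group, quasi-likelihood test, Benjamini-Hochberg adjustment over all genes tested, calls at an adjusted p under 0.05). All 18 libraries were fitted together for differences between lines, and CPM comes from that scaling. Adjusted p-values come from edgeR unless limma is named. Standard errors come from the same fits, as the absolute log2 fold change over the square root of its F statistic. The 95% intervals use the normal quantile, so they are somewhat narrower than the quasi-likelihood test would give. A gene at 0 was set to a floor of 3 counts per library for fold bounds, which cover counting error only. These bounds set the group mean of TMD8, not its lowest library, against the floor.

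Alternatives were DESeq2 1.42.0, other size factors, library size alone, no low-count filter, limma 3.58.1 on log2(TPM + 1), log2(TPM + 0.1) and centred log2(TPM + 1) with genes above a TPM minimum of 0.5, a replicate block, only the 6 libraries compared, and leaving out each library. The edgeR step was tested on simulated data. Of each pathway list the text names up to 3 genes per line with the largest change at 500 nM among those called, with a group mean that reached 5 CPM in 1 of the groups, above 3 counts in every library compared and without overlap of the groups. The closest match of PIM2 in expression pattern is not reported here. Replicates were compared by chi-square of their counts, and every pair of a group differed by more than sampling noise (1.62 to 10.9 per degree of freedom).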

Additional observations from a re-analysis of the deposited data

Results flagged for a closer look

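For 7 of the genes the change under JIB-04 differed between OCI-Ly1 and TMD8 by the edgeR test of that difference over all 18 libraries. One of them is CISH at 500 nM, for which no difference is given because it was at 0 in OCI-Ly1 with DMSO. Over all genes tested, such a difference was called for 23.3% at 150 nM and 46.4% at 500 nM, beside 1 and 7 of the 10 genes. At 150 nM, the change of SOCS1 was lower in OCI-Ly1, with a log2 difference of -1.11 ± 0.170 (SE; adjusted p = 4.07e-05), and at 500 nM the difference was -0.50 ± 0.162 (SE; adjusted p = 0.0139). The SOCS1 call at 500 nM was lost without the first DMSO library of OCI-Ly1, at -0.27 (edgeR, adjusted p = 0.158), and on log2(TPM + 1), at -0.020 (limma, adjusted p = 0.938). At 500 nM, the change was higher in OCI-Ly1 for PIM2 by 1.03 ± 0.0732 (SE; adjusted p = 1.78e-11), for PIM1 by 0.55 ± 0.0687 (SE; adjusted p = 4.27e-07), for JAK2 by 0.70 ± 0.1003 (SE; adjusted p = 2.63e-06), for JAK1 by 0.63 ± 0.0964 (SE; adjusted p = 6.94e-06) and for STAT3 by 0.64 ± 0.0836 (SE; adjusted p = 8.2e-07). Over all genes tested, the median of this difference at 500 nM was 0.049 in this fit and 0.43 on log2(TPM + 1), and the share of called genes with a higher change in OCI-Ly1 was 60.9% and 90.2%. With 3 libraries a group, no test for a single outlying library was made.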

How the results depend on the processing

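Over 62 log2 fold changes of the genes and their alternatives, 868 alternative values kept direction and side of the threshold, 42 lost the call, 12 gained one and 32 turned sign. Over 33 values of other pathway genes, 484 kept both, 9 lost the call and 2 turned sign. The cause was not tested for any of these. The number of the 10 genes called at 500 nM against 150 nM in TMD8 was 5, and 3 on each of the 3 TPM scales. The number whose change at 150 nM differed between lines was 1, and it was 3 with DESeq2, 2 with no low-count filter, 6 on log2(TPM + 1), 4 on log2(TPM + 0.1), 5 on centred log2(TPM + 1) and 1 to 2 when 1 library was left out. Over all genes, calls at 150 nM in OCI-Ly1 numbered 139, and 244 with DESeq2, 323 with no low-count filter, 57 and 65 on the TPM scales, 36 on the centred scale, 81 with only the 6 libraries compared, and 65 to 339 when 1 library was left out.

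Signs turned in these cases. With library size alone, PIM3 was 0.0090 in OCI-Ly1 at 500 nM and 0.073 in TMD8 at 150 nM, and in TMD8 at 500 nM JAK2 was 0.030 and PIM1 0.089. On log2(TPM + 1) and log2(TPM + 0.1), PIM3 was 0.058 and 0.061 in OCI-Ly1 at 500 nM, and -0.31 and -0.33 in TMD8. On the same scales PIM2 in TMD8 was -0.15 and -0.15 at 150 nM, -0.24 and -0.24 at 500 nM and -0.088 and -0.089 between the doses. TYK2 in TMD8 at 500 nM was -0.23 and -0.24, and the baseline difference of PIM3 was 0.27 and 0.29. The SOCS1 difference between lines at 500 nM was 0.0076 on log2(TPM + 0.1). On the centred scale STAT3 was -0.023 in OCI-Ly1 at 500 nM, and in TMD8 PIM2 was -0.030 at 150 nM and PIM3 -0.022 at 500 nM. PIM2 in TMD8 at 150 nM was -0.00042 with DESeq2 and from -0.023 to -0.0048 in the 4 cases of a left-out library that turned it. PIM3 there was 0.0032 with no low-count filter, 0.020 with only the 6 libraries compared, and 0.026 and 0.041 without a library. PIM1 in TMD8 at 500 nM was 0.0029 with only the 6 libraries compared, and from -0.041 to 0.024 when 1 library was left out.

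A replicate block changed the number of the 10 genes called at 500 against 150 nM from 6 to 7 (OCI-Ly1) and from 5 to 6 (TMD8), and left the other 7 counts at 0, 6, 4, 7, 1, 7 and 10. Correlations of same-numbered libraries were -0.051 to 0.21 (OCI-Ly1) and -0.064 to 0.16 (TMD8). Those of differently numbered libraries were -0.24 to 0.063 (OCI-Ly1) and -0.21 to 0.14 (TMD8). These ranges overlap, with the highest values between same-numbered libraries, so whether the numbers pair the libraries cannot be told from them. The values of SOCS3, CISH and STAT5A in OCI-Ly1 and of CISH in TMD8 rest on few counts.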
